A study of Mus musculus with 2 samples.

Results

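The metallothioneins and the genes of zinc handling were followed in C2C12 mouse myoblasts with and without an edit in Gne, the enzyme that starts sialic acid synthesis. The 10 genes are Mt1, Mt2, Mt3, the zinc sensor Mtf1, the exporters Slc30a1 and Slc30a5, and the importers Slc39a1, Slc39a6, Slc39a10 and Slc39a14, out of 21829 genes in the deposited values. They were picked by symbol after the low values of Mt1 and Mt2 in the KO line were known, so the change of that pair is given as a description. Both are the immortalised C2C12 line, grown at 37 °C and 5% CO2 in DMEM that held 50 µg/ml gentamicin and 10% FBS. The WT line was the control. The KO line, labelled GNE KO, was made with Cas9 and a guide against Gne and grown from single-cell clones, so the library stands for a clone as well as for the edit. The labels give 1 library per line, and none of the differences below has a replicate check. No age, treatment or time point is involved.

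Metallothioneins are small, cysteine-rich proteins that bind zinc and copper and buffer the free zinc of the cytosol. When cytosolic zinc rises, MTF1, a zinc-finger transcription factor, binds metal response elements in the promoters of Mt1, Mt2 and Slc30a1 and raises their transcription, while Slc39a10 is a gene that MTF1 represses. ZnT proteins (the Slc30 family) carry zinc out of the cytosol, and ZIP proteins (the Slc39 family) carry it in. In skeletal muscle, Mt1 and Mt2 are known for their rise during wasting.

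Gne RNA stood at 6.67 FPKM in WT and 7.34 FPKM in KO. FPKM are fragments per kilobase of transcript, scaled to the size of the library, so levels can be compared between genes. The deposited values name no unit and are read as FPKM from their totals. The methods name TPM, another length-corrected unit, and a TPM table of part of the genes cannot be told apart from FPKM here. Gne RNA was thus no lower in KO and does not tell the lines apart. The paper describes the edit as an indel that gives a premature stop codon and a truncated protein, which RNA level does not show. It reports sequencing of the clones and weaker lectin staining of sialic acid in the KO cells. The KO sample is called the KO-labelled library from here on, after its label. Of 9 myoblast markers, 6 passed the filter used below, a mean of at least 1 FPKM. Myod1, Des, Cdh15 and Chrna1 were more than 2-fold lower in the KO-labelled library, against 3.43% of all genes past the filter. Myod1 had 60.0 FPKM in WT and was listed at 0 in the KO-labelled library. Des had 97.6 and 3.84 FPKM, Cdh15 16.6 and 0.701 FPKM, and Chrna1 15.3 and 0.917 FPKM. Myf5 was more than 2-fold higher, against 2.84% of all genes, at 9.14 and 20.3 FPKM. Itga7 was 47.4 and 28.4 FPKM, Myog was below the filter, and Pax7 and Msc were listed at 0 in both. The markers summed to 246 and 54.1 FPKM. Of 9 fibroblast and mesenchymal markers, 6 passed the filter. Col1a1 and Col1a2 were more than 2-fold higher and Cd34 more than 2-fold lower, against 2.84% and 3.43% of all genes. Col1a1 had 9.66 and 273 FPKM, Col1a2 237 and 621 FPKM, and Cd34 136 and 10.6 FPKM. Pdgfra, Pdgfrb and Ly6a changed less, Dcn was below the filter, and Thy1 and Lum were listed at 0. These markers summed to 647 and 1145 FPKM. The part of such differences between the lines in the metallothionein values was not tested.

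The promoters of Mt1 and Mt2 are shown first. Both hold more matches to the sequence that MTF1 binds than most promoters do. Whether these matches have a part in the change of the pair was not tested. The core of the metal response element was searched as TGCACNC or TGCGCNC on both strands, in windows from 250 bases before to 50 bases after each RefSeq start site, with overlapping matches on opposite strands each counted. Capitals mark the matches, all sequences run 5′ to 3′ along the gene, and a match to the opposite strand reads as its reverse complement. Positions count from 1 at the start site, with negative positions before it. Stretches that lie in annotated exons are printed only around a match. On GRCm39 the sequences lie on the plus strand at chr8:94905467-94905709 and chr8:94905717-94905745 for Mt1, at chr8:94898996-94899131, chr8:94899194-94899204 and chr8:94899248-94899258 for Mt2, and at chr1:191638848-191638858 and chr1:191638921-191638931 for Slc30a1, which is shown for comparison because its level was not lower in the KO-labelled library.
Mt1, -250 to -8: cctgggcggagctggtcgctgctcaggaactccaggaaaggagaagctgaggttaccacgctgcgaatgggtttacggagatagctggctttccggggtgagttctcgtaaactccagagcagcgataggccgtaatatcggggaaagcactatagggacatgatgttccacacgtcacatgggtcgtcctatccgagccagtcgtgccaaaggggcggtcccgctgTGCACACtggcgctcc
Mt1, 1 to 29: tcTGCACTCcgcccgaaaagTGCGCTCgg
Mt2, -250 to -115: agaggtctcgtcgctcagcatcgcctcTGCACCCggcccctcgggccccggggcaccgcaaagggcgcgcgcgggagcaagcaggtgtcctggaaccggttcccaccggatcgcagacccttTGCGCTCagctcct
Mt2, -52 to -42: gcGTGTGCAgg
Mt2, 3 to 13: tcGTGCGCAgg
Slc30a1, -45 to -35: ccGAGTGCAaa
Slc30a1, 29 to 39: ccGAGCGCAgt

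Mt1 held 3 matches and Mt2 held 4. At least 3 matches were found in 1.97% of all 32851 promoter windows, at least 4 in 0.517%, and at least 1 in 25.7%. Mt1 has a further annotated start 152 bases downstream of the RefSeq start used here, and the bases in front of it beyond the window were not searched. Annotated Mt2 transcripts start at 94898819, 94899132, 94899200 and 94899488, on either side of the RefSeq start used here, 94899246. Windows at those Mt2 starts were not searched either, so both counts hold for the start used. Slc30a1 held 2 matches, Mt3 and Slc30a5 held 1 each, and the windows of Mtf1, Slc39a1 and Slc39a10 held 0. Slc39a6 and Slc39a14 had no window.

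Mt1 had 4139 FPKM in WT and 845 FPKM in the KO-labelled library. Mt2 had 3651 and 577 FPKM. Both were high in WT and lower in the KO-labelled library, by 4.90-fold for Mt1 and 6.33-fold for Mt2. On the log2(FPKM + 1) scale the differences were -2.29 and -2.66. More than 2-fold lower values were seen in 3.43% of the 10542 genes whose mean reached 1 FPKM (the filter), more than 2-fold higher values in 2.84% and either in 6.27%, and since the pair was picked for its fall nothing is read from its count. Mt1 was the 6th most abundant gene in WT and the 95th in the KO-labelled library, and Mt2 went from rank 8 to rank 141. Together they made up 1.37% of all FPKM in WT, a sum of 7790 FPKM, and 0.248% in the KO-labelled library, a sum of 1422 FPKM. The sum was 5.48-fold lower. Mt1 stood at 1.13 times Mt2 in WT and at 1.47 times Mt2 in the KO-labelled library, so Mt2 was reduced by the larger factor.

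**Figure D1:**
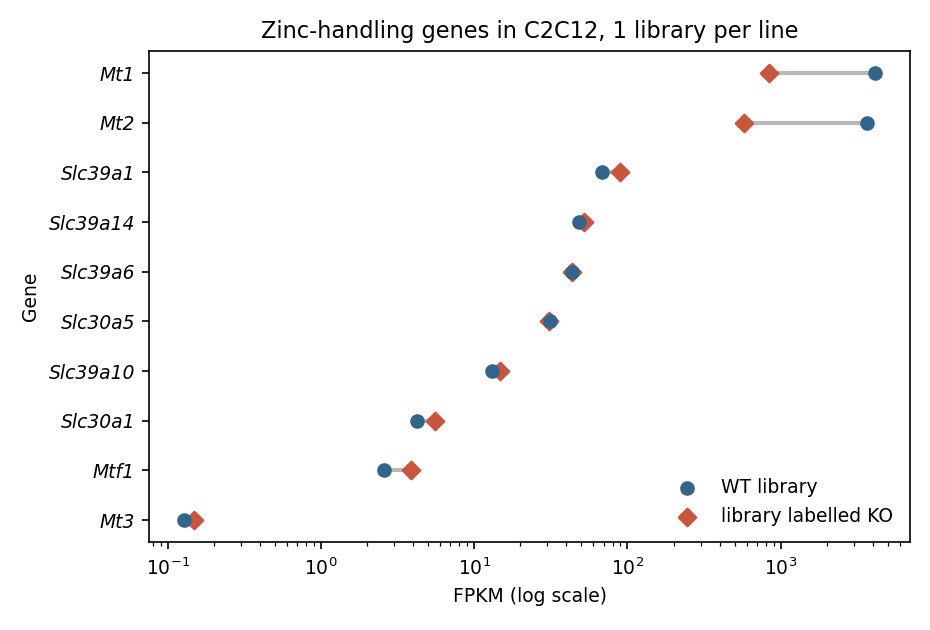
FPKM (log scale) of the 10 genes in the WT library (circles) and the KO-labelled library (diamonds), 1 library each with no error bars, ordered by WT level. Mt1 and Mt2 lie far to the right and shift down from 4139 to 845 and from 3651 to 577 FPKM, whereas the symbols of Slc39a6 and Slc30a5 overlap.

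As a description of the abundant genes, 82 had at least 1000 FPKM in WT. Of these 2, or 2.44%, were more than 2-fold lower, namely Mt1 and Mt2, and 0 were more than 2-fold higher. The pair passed this level through WT alone and was picked for its fall, so nothing is read from that count. When the mean of both libraries set the level instead, the counts were 2 and 0 of 82 genes. The median log2 difference of the 82 genes was 0.043. The next lowest was S100a10, a partner of annexin A2, at 1518 and 1033 FPKM, a log2 difference of -0.56. Mt1 and Mt2 had the largest and second largest loss in FPKM of all genes past the filter. Lgals1, which encodes galectin-1 and was named after its value was seen, came next at 4918 and 3660 FPKM. By log2 difference, where low genes can change more, Mt2 ranked 29th and Mt1 58th among the falls.

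Each metallothionein was the gene nearest in level to the other. Over the 2 libraries, Mt1 and Mt2 lay 0.58 log2 units apart in the plane of both levels. The next nearest to Mt1 was Rpl8, a ribosomal protein gene, at a distance of 1.42, followed by S100a10, Ptma and Rpl7a. The next nearest to Mt2 were S100a10 at 1.52, Eif5a, Rpl7a and Rpl37. Likeness over 2 libraries covers level and change alone, and none of these other genes was more than 2-fold changed. The pair was picked for its fall in these same values, so nothing is read from its nearness.

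**Figure D2:**
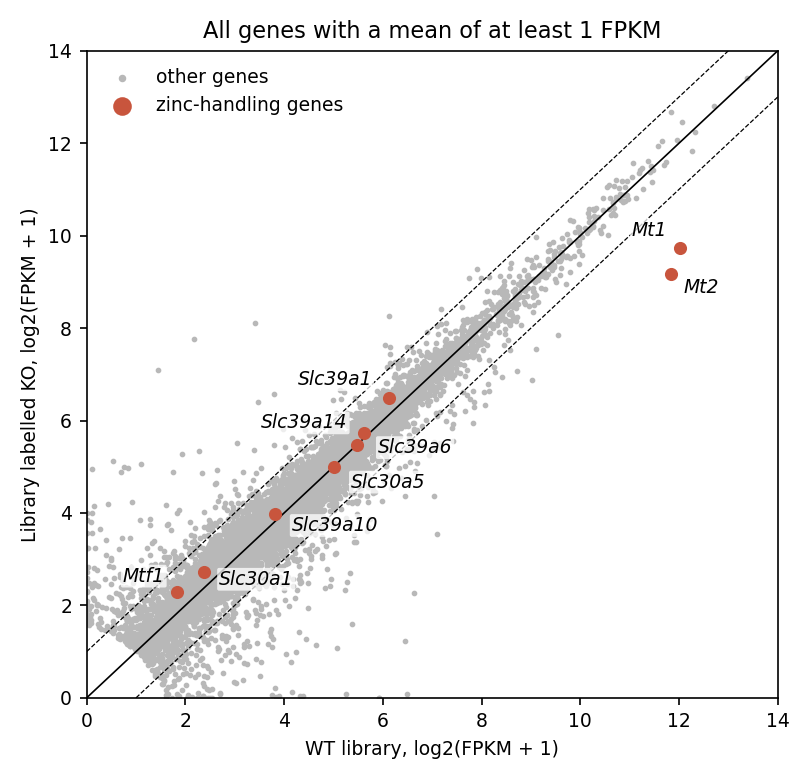
Level of each gene past the filter in the WT library (x axis) and the KO-labelled library (y axis), both as log2(FPKM + 1), with the diagonal as a solid line and 2-fold differences as dashed lines. Mt1 and Mt2 lie below the lower dashed line at the upper end of expression, and the other 7 zinc-handling genes past the filter lie between the dashed lines.

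Mt3, the brain metallothionein, was at the lower end of detection, at 0.128 FPKM in WT and 0.148 FPKM in the KO-labelled library. Multiplied by transcript length in kilobases these values are 0.111 and 0.128, against 0.0375 and 0.0425 for the most frequent low step among genes in the same libraries. Mt3 was the only member below the filter, and no fold is read from it. Mt4, the metallothionein of squamous epithelia, was listed at 0 in both libraries.

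Reads of Mt1 and Mt2 can be told apart by sequence. None of the 1388 distinct words of 75 bases from annotated Mt1 transcripts and none of the 1398 from Mt2 occurred in a transcript of another gene, and the longest run that both genes share is 20 bases. Mt2 overlaps the antisense gene Gm45774, which has no row in the values. The read length of 75 bases and the library kit are those of the sample records, whereas the supplementary methods name another kit and longer reads. Both kits mark strand, but how strand was used in counting is not given in the sources used here.

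Mt2 and Mt1 lie head to tail on the plus strand of chromosome 8 in GRCm39, Mt2 from 94898819 to 94900207 and Mt1 from 94905710 to 94906955, with 5502 bases between them. Mt3 starts 19599 bases before Mt2. All genes in this neighbourhood are to be read beside them, because most of those genes were lower too. Of 41 other genes past the filter within 5 Mb of Mt1, 37 had a lower value in the KO-labelled library and 19 were more than 2-fold lower, against 49.3% and 3.43% of all genes. Their median log2 difference was -0.95, with quartiles of -1.35 and -0.69.

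Before Mt2, the nearest genes past the filter were Bbs2, a subunit of the BBSome of the primary cilium, at 10.0 and 4.34 FPKM, Ogfod1, a ribosomal prolyl hydroxylase, at 17.6 and 8.62 FPKM, and Nudt21, a subunit of the RNA cleavage factor, at 50.9 and 22.7 FPKM. After Mt1 came Nup93, a nuclear pore scaffold gene 34.1 kb away, at 79.2 and 30.5 FPKM, then Herpud1, which acts in ER-associated degradation, at 86.5 and 31.2 FPKM, and Cpne2, a copine, at 86.4 and 19.5 FPKM. These 6 genes had log2 differences from -2.09 to -0.95, so each was lower and none reached the value of Mt1 or Mt2. After subtraction of the median of the neighbours, Mt1 stood at -1.34 and Mt2 at -1.71. Mt2 had the lowest log2 difference in the window, with Ndrg4 next, at 130 and 19.7 FPKM, and Mt1 came after Ndrg4. With a pseudocount of 0.1, Ndrg4, named after its value was seen, came before Mt2, and among neighbours within 10 Mb Mt2 was in place 2 and Mt1 in place 4. A change shared by the region and a change of the metallothioneins themselves cannot be told apart from 1 library per line, and DNA copy number was not analysed here.

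**Figure D3:**
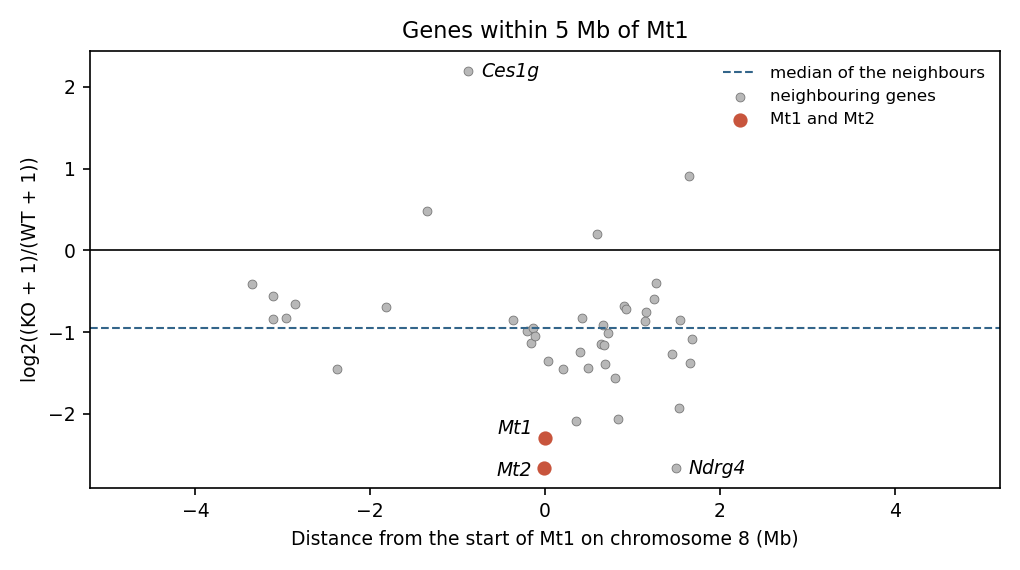
Log2 difference between the KO-labelled library and WT, as log2((KO + 1)/(WT + 1)), of genes within 5 Mb of Mt1 against distance from its start in Mb, with the median of the 41 neighbours at -0.95 as a dashed line. Most neighbours lie below 0, and Mt2, Ndrg4 and Mt1 are the 3 lowest points.

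Mtf1, the zinc sensor that drives Mt1 and Mt2, was expressed at a low level, 2.57 FPKM in WT and 3.89 FPKM in the KO-labelled library. The log2 difference of Mtf1 was 0.45, below the 2-fold limit, and this value moved between 0.23 and 0.58 with the pseudocount. Whether a difference of this size exceeds the spread between cultures was not tested. Mtf1 lies on chromosome 4 from 124695897 to 124743593, where its neighbours had a median of -0.04. RNA amount does not show how much MTF1 protein was active, and a part of Mtf1 in the metallothionein values was not tested.

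Slc30a1 encodes ZnT1, the zinc exporter of the plasma membrane and a target of MTF1 like the metallothioneins. Its level was 4.23 FPKM in WT and 5.57 FPKM in the KO-labelled library, a log2 difference of 0.33. The value of this exporter was higher in the KO-labelled library, by less than 2-fold. Slc30a1 lies on chromosome 1 from 191638808 to 191645361, and its neighbours had a median of 0.09. Slc39a10, which encodes the importer ZIP10 and is repressed by MTF1, had 13.1 and 14.7 FPKM, a log2 difference of 0.15. Neither gene came near the size of the metallothionein change, and whether differences of this size exceed the spread between cultures was not tested.

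Slc30a5 encodes ZnT5, which loads zinc into the early secretory pathway together with ZnT6. It had 31.3 FPKM in WT and 31.0 FPKM in the KO-labelled library, a log2 difference of -0.02. Slc39a6 encodes ZIP6, the importer that pairs with ZIP10, and had 43.53 and 43.48 FPKM. These 2 genes had the smallest log2 differences among the members. Slc30a5 lies on the minus strand of chromosome 13 from 100936795 to 100970006, and Slc39a6 on the minus strand of chromosome 18 from 24711955 to 24736969. The median of the neighbours was 0.09 for Slc30a5 and 0.04 for Slc39a6.

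Slc39a1, which encodes the widely expressed plasma membrane importer ZIP1, was the most abundant transporter among the members, at 68.6 and 89.0 FPKM, a log2 difference of 0.37. Slc39a14, whose product ZIP14 carries zinc, iron and manganese, had 48.4 and 52.4 FPKM, a log2 difference of 0.11. Slc39a1 lies on the plus strand of chromosome 3 from 90155138 to 90160924, Slc39a14 on the minus strand of chromosome 14 from 70540678 to 70588914, and Slc39a10 on the minus strand of chromosome 1 from 46845872 to 46964964. After subtraction of neighbours within 5 Mb, Slc39a1 stood at 0.35, Slc39a14 at 0.17 and Slc39a10 at -0.06. Ordered by WT level, the transporters ran Slc39a1, Slc39a14, Slc39a6, Slc30a5, Slc39a10 and Slc30a1, and the order in the KO-labelled library was identical. With 1 library per line it cannot be said which neighbours in that order differ beyond their spread. Of the 7 members past the filter other than Mt1 and Mt2, 5 had a higher and 2 a lower value, 0 were more than 2-fold changed, and the median was 0.15. Among all genes, 6.27% were more than 2-fold changed, 50.7% had a higher value and the median was 0.0061, with quartiles of -0.21 and 0.23.

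The wider exporter family gave a like picture. Of 10 Slc30 genes, 6 passed the filter and 0 were more than 2-fold higher or lower, against 2.84% and 3.43% of all genes. Their median was 0.22. Slc30a4, which encodes ZnT4 of endosomal vesicles, was the most abundant exporter at 56.9 and 68.3 FPKM. Slc30a7, which encodes the Golgi transporter ZnT7, had the largest difference of the exporters past the filter, 5.96 and 11.4 FPKM, a log2 difference of 0.83. Slc30a6, the partner of ZnT5, had 9.98 and 11.4 FPKM, and Slc30a9, a mitochondrial exporter, had 10.2 FPKM in both. Slc30a3, the exporter of synaptic vesicles, was below the filter at 1.44 and 0.024 FPKM. Slc30a2, Slc30a8 and Slc30a10 were listed at 0 in both libraries, so the exporters of mammary gland and pancreatic islets and a manganese exporter were not seen here.

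Of 14 Slc39 genes, 9 passed the filter, 2 were more than 2-fold higher and 0 lower, against 2.84% and 3.43% of all genes, and the median was 0.15. Slc39a11, which encodes ZIP11, had 4.23 and 11.9 FPKM, a 2.81-fold difference. Slc39a3, which encodes the importer ZIP3, had 6.73 and 15.3 FPKM, a log2 difference of 1.07. Both were higher in the KO-labelled library. With a pseudocount of 5 neither was past 2-fold. The neighbours of Slc39a3 on chromosome 10 had a median of 0.38 and those of Slc39a11 on chromosome 11 of -0.01. After subtraction the values were 0.69 for Slc39a3 and 1.31 for Slc39a11.

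Slc39a7, which encodes ZIP7 of the endoplasmic reticulum, was the most abundant importer at 92.5 and 94.2 FPKM. Slc39a13, whose product ZIP13 acts in the secretory pathway of connective tissue cells, was the importer past the filter with the largest decrease, from 50.5 to 38.2 FPKM, a log2 difference of -0.39. Slc39a9 had 20.1 and 23.0 FPKM. Slc39a8, a close relative of Slc39a14, was below the filter at 0.465 and 0.256 FPKM, as were Slc39a2, at 0.018 FPKM in WT and listed at 0 in the KO-labelled library, and Slc39a4, at 0.018 and 0.086 FPKM. Slc39a5 and Slc39a12 were listed at 0 in both.

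Of 5 genes of zinc biology outside both families and the members, 4 passed the filter. Of these, 0 were more than 2-fold changed, against 6.27% of all genes. A higher value was seen in 2 and a lower in 2, and the median was 0.02. The largest difference was that of Gpr39, a receptor for extracellular zinc, at 6.71 and 12.5 FPKM. Mcoln1, a lysosomal cation channel, had 48.9 and 43.0 FPKM, and Trpm7, a zinc-permeable channel kinase, had 25.2 and 23.3 FPKM.

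Genes named as induced through MTF1 were then compared as a list, which holds Mt1 and Mt2. All 9 passed the filter, 3 were more than 2-fold lower, where 3.43% of all genes were, and 0 higher, and the median was -0.05. Without Mt1 and Mt2, 1 of 7 was more than 2-fold lower, 4 had a higher and 3 a lower value, with a median of 0.17. The gene past 2-fold was Ndrg1, a stress gene that hypoxia also induces, at 64.4 and 24.8 FPKM, a log2 difference of -1.34. Gclc, the catalytic subunit of glutamate-cysteine ligase in glutathione synthesis, had 29.1 and 17.1 FPKM, a log2 difference of -0.74. Csrp1, a LIM-domain protein, had 116 and 204 FPKM, and Pgf, placental growth factor, had 12.8 and 19.8 FPKM. Members of this list therefore differed in both directions.

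**Figure D4:**
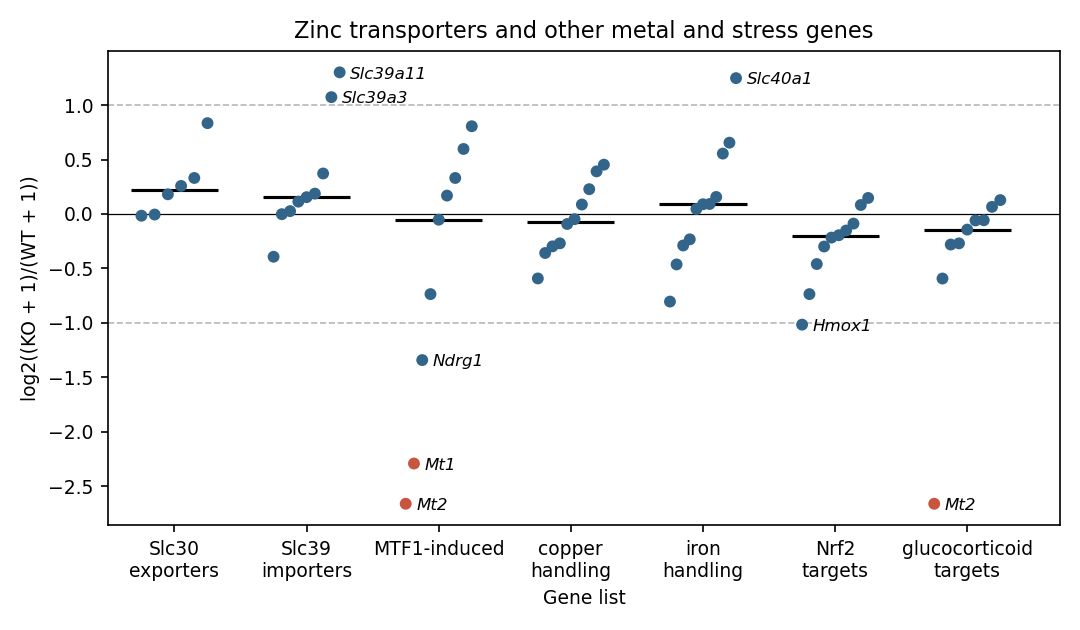
Log2 difference between the KO-labelled library and WT, as log2((KO + 1)/(WT + 1)), of each gene past the filter in 7 gene lists, with black bars at list medians and dashed lines at 2-fold differences. Mt1 and Mt2 (red) lie below -2, and the medians of all 7 lists lie between -0.21 and 0.22.

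Other metal and stress genes with known links to metallothioneins were compared in the same way. Of 11 copper genes 10 passed the filter, 0 were more than 2-fold changed, against 6.27% of all genes, and the median was -0.07. Sod1, the copper-zinc superoxide dismutase, had 567 and 376 FPKM, and Atp7a, the copper exporter, had 4.40 and 6.40 FPKM. Of 11 iron genes, Slc40a1, which encodes the iron exporter ferroportin, was more than 2-fold higher, against 2.84% of all genes, at 1.13 and 4.05 FPKM, and the median was 0.09. The ferritin genes Fth1 and Ftl1, which store iron and stood at metallothionein levels in WT, had 4002 and 4265 FPKM and 6717 and 7148 FPKM. Both ferritins thus had a slightly higher value in the KO-labelled library.

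Of 10 Nrf2 target genes of the oxidative stress response, 8 had a lower and 2 a higher value, where 49.3% of all genes were lower. In this list 1 gene was more than 2-fold lower, where 3.43% of all genes were, and the median was -0.21. That gene was Hmox1, which encodes heme oxygenase 1, at 196 and 96.5 FPKM, a log2 difference of -1.02 that lies at the limit. Gclc, given above among the genes induced through MTF1, is in this list too, with a log2 difference of -0.74. Nqo1, a quinone reductase, had 174 and 126 FPKM, a log2 difference of -0.46. Glucocorticoids also induce Mt2. Of the 8 other glucocorticoid targets past the filter, 0 were more than 2-fold changed, against 6.27% of all genes, and the median was -0.10. Fkbp5, a sensitive marker of the hormone's receptor, had 16.5 and 18.1 FPKM, and Dusp1, a MAP kinase phosphatase, had 36.3 and 23.8 FPKM.

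The number of promoter matches to the metal response element was set against the change of all 8379 genes past the filter that had a window. The median log2 difference was 0.0061 for 4898 genes with 0 matches, 0.0025 for 2314 genes with 1, -0.0020 for 840 genes with 2, and 0.024 for 327 genes with 3 or more. More than 2-fold lower were 3.12%, 3.07%, 2.98% and 3.67% of these genes. Genes with 3 or more matches had quartiles of -0.18 and 0.24, close to the -0.21 and 0.23 of genes with 0, and Mt1 and Mt2 were 2 of the 12 lower genes among the 327. Slc30a1, with 2 matches, lay above the upper quartile of its class, 0.20.

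**Figure D5:**
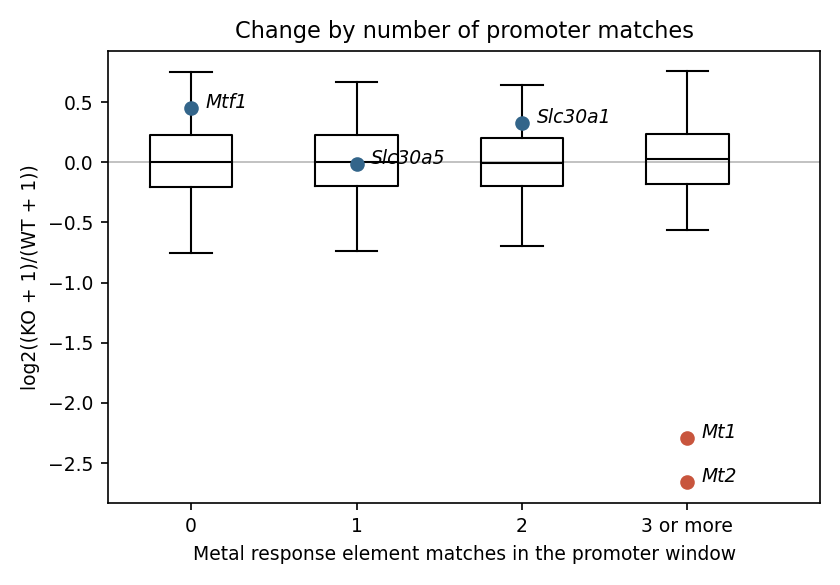
Log2 difference between the KO-labelled library and WT, as log2((KO + 1)/(WT + 1)), of genes grouped by the number of metal response element matches in the promoter window, with boxes at the quartiles and medians and whiskers from the 5th to the 95th percentile. The 4 boxes lie at the same height, and Mt1 and Mt2 (red) lie far below that of their class.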

How the data were processed

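RNA from 2 C2C12 libraries, 1 labelled WT and 1 labelled Gne KO, was analysed. For each library the authors deposited a list of gene symbols with 1 value each. No unit is named. The methods name expected counts and TPM from RSEM, but the values are not whole and total 568543 (WT) and 574253 (KO), so the deposited values, made by the authors with the tools below, were read as FPKM. A TPM table of part of the genes cannot be told apart from this, and the folds between the libraries as deposited hold for either unit. The submitters' processing notes list Trim Galore 0.6.6, STAR 2.7.9a, RSEM 1.3.3 and GRCm38, whereas the methods name GRCm39 and another STAR release. Read numbers are unknown, and counting intervals could not be computed.

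The lists held 21853 rows. For 24 repeated symbols only the row of higher mean was used. Fold changes were log2((KO + 1)/(WT + 1)), a scale that understates changes of low genes. The 10542 genes whose mean reached 1 FPKM formed the background. No test was possible. Positions came from GENCODE vM39 on GRCm39, found for 10305 of these genes by symbol or by a RefSeq synonym. Promoter windows came from RefSeq (GRCm38.p6) and were placed on GRCm39 by exact match. The study's DESeq2 design needs replicates and was not used. Named genes were the members, the rest of both transporter families and Mt4, list genes changed more than 2-fold and past this filter, the 5 genes nearest in level to Mt1 and to Mt2, the 3 nearest genes on each side of that pair, and Gne; others were chosen after their values were seen. The members and lists were chosen with earlier results of these data known. Alternatives were other pseudocounts, scalings, filters and neighbour windows. The summary steps were tested on simulated data. Python 3.11.15, numpy 2.4.6, pandas 2.3.3 and matplotlib 3.10.9 were used.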

Additional observations from a re-analysis of the deposited data

How the results depend on the processing

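No paired analysis was possible because each line has 1 library and nothing was tested, and for the same reason none could be left out. A single gene was taken as moved beyond the interquartile range of all genes, 0.44, or across the 2-fold limit, a count beyond 1.5 times, and a median outside its order-statistic interval. Of 219 comparisons with an alternative, 207 stayed within these limits and 0 changed sign among genes past 2-fold. Mt1 ran from -2.31 to -2.29 and Mt2 from -2.67 to -2.65 over the pseudocounts and scalings. After subtraction of neighbours, Mt1 ran from -1.70 to -1.06 and Mt2 from -2.07 to -1.43, over windows of 1 to 10 Mb, filters, pseudocounts and scalings. Mt3 after the same subtraction stood at 0.98 and moved past the 2-fold limit in some settings. It was 1.13 with a pseudocount of 0.1, 1.11 within 1 Mb and 1.26 within 10 Mb, and no fold is read from Mt3. With a pseudocount of 5, the count of more than 2-fold higher genes became 0 for the Slc39 family and 0 for the iron list, and the count of lower Nrf2 targets became 0, where Hmox1 had stood at the limit with -1.02. Without a filter, 1 Slc30 gene, Slc30a3, was more than 2-fold lower. The stricter filter, a mean of 5 FPKM or more, removes Slc40a1 and took the iron count to 0. Over all genes, the pseudocount of 5 took the 299 higher and 362 lower genes to 102 and 176, and the stricter filter took them to 145 and 221. The unknown number of reads limits what can be said of genes near 0, such as Mt3.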

Other observations

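Of the 41 neighbours within 5 Mb of Mt1, 4 were higher in the KO-labelled library. They were named after their values were seen. Ces1g, a carboxylesterase, had 0.292 FPKM in WT and 4.92 FPKM in the KO-labelled library. Sap18b had 9.05 and 17.8 FPKM. Mmp2, the matrix protease gelatinase A, had 40.3 and 56.6 FPKM, and Cx3cl1, the chemokine fractalkine, had 23.0 and 26.5 FPKM.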
